A study of Mus musculus with 9 samples.

Results

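The miRNAs described here are the heart and skeletal muscle miRNAs miR-1a-3p (MIMAT0000123), miR-133a-3p (MIMAT0000145), miR-206-3p (MIMAT0000239) and miR-499-5p (MIMAT0003482). They were chosen by identifier, and 3 of the 4 were among the 876 mature miRNAs listed in at least 1 library. Counts of small RNA reads were compared in serum of healthy male and female 129/SVj mice of 2 to 9 months. RNA of serum pools A, B and C was split into a control fraction without depletion, a fraction in which 5′ tRNA-halves were captured with biotinylated DNA probes on streptavidin beads, and a fraction in which the probe-bound RNA was cut by RNase H, an endonuclease specific for RNA in a DNA/RNA duplex. This gave 3 libraries per group and 9 in all. 5′ tRNA-halves are fragments of tRNAs cut in the anticodon loop, and they take up most reads of undepleted mouse serum libraries. The labels speak of 3 pools, whereas the methods describe aliquots of a pool of serum from 3 mice, so the spread between A, B and C may be technical only. All blood was drawn by cardiac puncture, so no group of this series has serum collected without a needle passing the heart wall, and the part of this step in the levels was not tested.

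These miRNAs are known as muscle miRNAs because striated muscle makes far more of them than most other tissues. miR-1a and miR-206 share a seed, the stretch of bases that pairs with target mRNAs, and are known to favour muscle differentiation. miR-1a and miR-133a are cut from shared transcripts in heart and skeletal muscle, and miR-133a is known to hold back muscle growth and to act in proliferating muscle precursors. miR-206 is known from skeletal muscle and is low in heart. miR-499 is made from an intron of a myosin gene and is known from heart and slow skeletal muscle. Muscle injury is known to raise such miRNAs in serum.

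Mature sequences from RefSeq (GRCm38.p6) were matched by name for 2 of the 4 miRNAs. They are shown so that the seeds can be compared, with the seed (bases 2 to 8) in capitals:
miR-206-3p: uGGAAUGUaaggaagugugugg
miR-499-5p: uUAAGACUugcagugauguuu
miR-206-3p is 22 bases long with 45.5% G and C, and miR-499-5p is 21 bases long with 33.3%. The seed of miR-499-5p occurred in no other mature miRNA of the 1679 in the RefSeq table. The seed of miR-206-3p was shared there with miR-6349 and miR-6382. That table gave no sequence for miR-1a-3p or miR-133a-3p, so seed relatives of either miRNA shown can be missing from it.

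The hairpins from which both are cut are shown with the mature miRNA in capitals, because the 2 miRNAs come from opposite arms:
Mir206: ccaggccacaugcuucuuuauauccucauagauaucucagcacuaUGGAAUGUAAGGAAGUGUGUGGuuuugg
Mir499: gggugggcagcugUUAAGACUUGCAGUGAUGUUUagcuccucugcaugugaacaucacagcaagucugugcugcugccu
Mir206 lies on the plus strand at chr1:20679010-20679082 (GRCm38), in an exon of the long non-coding RNA gene Gm28653 in GENCODE M21, and RefSeq places it in the long non-coding RNA gene Lincmd1. Mir499 lies on the plus strand at chr2:155622880-155622958, in an intron of Myh7b, a protein-coding gene for a myosin heavy chain. miR-1a-3p and miR-133a-3p can each be cut from more than 1 hairpin, between which counts cannot be divided. For miR-133a-3p one of these is Mir133a-2 at chr2:180398379-180398482, and for miR-1a-3p one is Mir1a-1 at chr2:180389048-180389124, both on the plus strand. RefSeq places both within the long non-coding RNA gene Mir1a-1hg, whereas no other GENCODE M21 gene overlaps either. Reads of miR-133a-3p can also be shared with miR-133b-3p, its near-identical relative, since a read too short to reach the base that differs maps to both.

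Control libraries held 205185 to 330676 miRNA counts, beads-depleted libraries 1822088 to 1995956 and RNase H-depleted libraries 1199 to 2040. Levels are given as CPM, the counts scaled to 1000000 miRNA counts of the library, so they describe the makeup of the miRNA fraction and not the amount of miRNA. With 3 counts taken as the smallest level that a library can show, the limit was 9.07 to 14.6 CPM in control, 1.50 to 1.65 CPM in beads-depleted and 1471 to 2502 CPM in RNase H-depleted libraries.

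miR-133a-3p was the only one of these miRNAs found in all 9 libraries, and the miRNA fraction held it at nearly the same level with beads as without depletion. In control libraries A, B and C it had 1105, 1750 and 1356 counts, or 5385, 5292 and 5452 CPM. In beads-depleted libraries it had 11027, 11181 and 10367 counts, or 5724, 5602 and 5690 CPM. The 3 beads-depleted libraries all lay above the 3 control libraries, by a margin that is small beside the level itself. It was the miRNA of rank 30 by count in each control library and of rank 29 in each beads-depleted library, so it belonged to the abundant miRNAs of this serum.

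The mean level was 5377 ± 80.5 CPM in control and 5672 ± 62.9 CPM in beads-depleted libraries (SD, n = 3), a difference of 295.1 CPM and a ratio of 1.05. The exact permutation test gave p = 0.1 (two-sided), the smallest that 3 against 3 libraries allow, so no comparison of levels here can pass 0.05. In edgeR's quasi-likelihood test the log2 fold change was 0.08 ± 0.073 SE (95% interval -0.06 to 0.23, adjusted p = 0.462). A shift of this size was thus not told apart from the variation that the fit allows miRNAs between libraries. The ratio of the summed levels was 1.06, with an exact 95% interval of 1.02 to 1.09 that covers counting error only and excludes 1. Over the 307 miRNAs tested, 26.7% passed an adjusted p of 0.05 (16.6% higher and 10.1% lower) and the median log2 fold change was 0.04. In 22.8% of those tested, every beads-depleted library lay above every control library, so the separation of the groups for miR-133a-3p is a common pattern.

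**Figure D1:**
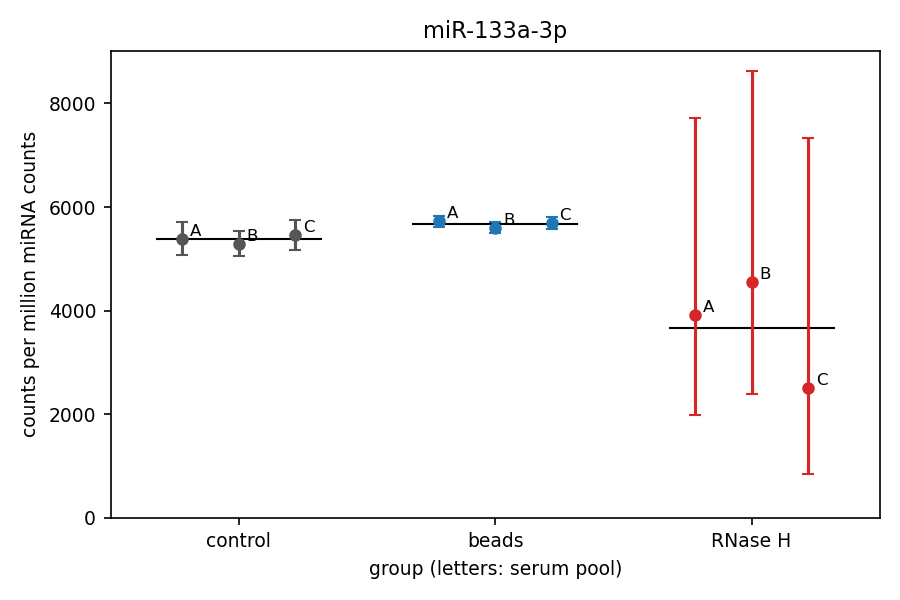
Level of miR-133a-3p in each library, in CPM (counts scaled to 1000000 miRNA counts), for the control, beads and RNase H groups. Points are libraries of serum pools A, B and C, bars are Wilson 95% confidence intervals for counting error, and black lines are group means (5377, 5672 and 3659 CPM). The control and beads-depleted libraries sit in a narrow band, and the RNase H-depleted libraries lie lower with wide intervals.

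Within each pool the raw count of miR-133a-3p was higher with beads, as was that of all miRNAs. It was 9.98 times as high with beads as in control in pool A, where all miRNA counts were 9.39 times as many. The values were 6.39 against 6.04 in pool B and 7.65 against 7.33 in pool C. The gain of miR-133a-3p relative to all miRNAs was therefore 1.06, 1.06 and 1.04 in pools A, B and C, which is about equal in the 3 pools although the gain in counts differed between them. Of every 1000000 annotated reads, tRNA fragments included, it took 322.7 ± 50.01 in control and 3407 ± 543 in beads-depleted libraries (SD, n = 3).

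The 3 control libraries differed little in miR-133a-3p, as did the 3 beads-depleted libraries. The chi-square statistic of its counts per degree of freedom was 0.348 in control libraries, where a value near 1 means a spread no larger than counting error. Of the 92 miRNAs with at least 300 counts over the control libraries, 13 had a lower value, and the median was 1.55. In beads-depleted libraries the statistic was 1.37, against a median of 6.27 over 176 miRNAs, 26 of which had a lower value. The coefficient of variation of the level between pools was 1.50% in control and 1.11% in beads-depleted libraries, against 28.7% in RNase H-depleted libraries, where counts were below 10.

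After depletion with RNase H, miR-133a-3p had 8, 9 and 3 counts in libraries A, B and C, or 3922, 4552 and 2502 CPM. All 3 libraries lay below the control libraries, and library C was the lowest, at a count of 3. Its rank was 30, 32 and 42 among the 112, 113 and 98 miRNAs listed there. The mean was 3659 ± 1050 CPM (SD, n = 3), a ratio to control of 0.680 (exact permutation p of 0.1, two-sided). In edgeR's quasi-likelihood test the log2 fold change was -0.60 ± 0.26 SE (unadjusted p = 0.0458, adjusted p = 0.195), against a median of -0.19 over the 138 miRNAs tested, 11.6% of which passed (6.52% higher and 5.07% lower). The share that passed rests on 16 miRNAs and is uncertain. In simulated counts of this depth, more calls were false than the threshold allows where many miRNAs were changed. DESeq2, run without edgeR's filter on low counts, called 32. Without control B or control C edgeR called 4, which cannot be set beside 16. That filter follows the median library size, and without a control library the median library is an RNase H-depleted one. Fewer miRNAs were then tested and used for normalisation. In these fits the log2 fold change of miR-133a-3p was -0.28, -0.29 and -0.27 without control A, B and C. Taking pools as a replicate block, it was -0.62 ± 0.37 SE (edgeR adjusted p = 0.426).

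A level equal to that of the control libraries would have given 28.0 counts over the 3 RNase H-depleted libraries, where 20 were found. The ratio of the summed levels was 0.714, with an exact 95% interval of 0.436 to 1.10 that covers counting error only and includes 1. In 28.3% of the miRNAs tested, every RNase H-depleted library lay below every control library, which is the background for the separation of miR-133a-3p. A fall of miR-133a-3p within the miRNA fraction was thus not detected. Of every 1000000 annotated reads it took 92.7 ± 84.9 (SD, n = 3), lower than in each control library.

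miR-499-5p, the miRNA of the Myh7b intron, was listed in control and beads-depleted libraries at a far lower level. Control libraries A, B and C held 2, 2 and 1 counts, or 9.75, 6.05 and 4.02 CPM. Beads-depleted libraries held 33, 43 and 32 counts, or 17.1, 21.5 and 17.6 CPM. Each beads-depleted library lay above each control library, but every control count was below the limit of 3 counts. The Wilson 95% intervals of single libraries overlapped between the groups, reaching 35.5 CPM in control A and going down to 12.2 CPM in beads-depleted A.

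The mean level of miR-499-5p was 6.61 ± 2.90 CPM in control and 18.7 ± 2.43 CPM in beads-depleted libraries (SD, n = 3, exact permutation p of 0.1, two-sided). The ratio of the summed levels, from 5 and 108 counts, was 2.95 with an exact 95% interval of 1.23 to 9.27 for counting error. It passed the filter on low counts only through its beads-depleted counts, so its place among the miRNAs tested is not independent of the direction of its difference, and no call is made from the fits. In edgeR's quasi-likelihood test the log2 fold change was 1.55 ± 0.63 SE (adjusted p = 0.0513). It was 1.58 without the filter (edgeR adjusted p = 0.127), 1.57 ± 0.63 SE with pools as a replicate block (edgeR adjusted p = 0.0472) and 1.51 ± 0.78 SE with DESeq2 (adjusted p = 0.237).

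Raw counts of miR-499-5p were 16.5, 21.5 and 32.0 times as high with beads as in control in pools A, B and C. Relative to all miRNA counts these ratios were 1.76, 3.56 and 4.37, above 1 in each pool, with control counts of 1 or 2 in the denominator. At the control level 12.3, 12.7 and 11.6 counts would have been found in the beads-depleted libraries, and at the beads-depleted level 14.7 counts over the 3 control libraries, where 5 were listed. Its rank was 265, 310 and 316 in control libraries A, B and C and 245, 228 and 239 in beads-depleted libraries.

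miR-206-3p was listed in the beads-depleted libraries only, with 1, 3 and 2 counts in A, B and C, or 0.519, 1.50 and 1.10 CPM. The highest of these values is that of the library with 3 counts, so the level lay at or below the limit of these deep libraries. The mean was 1.04 ± 0.495 CPM (SD, n = 3), and the exact permutation test gave p = 0.1 (two-sided). At this level 0.819 counts would be found over all 3 control libraries together, so their count of 0, which allows up to 3.82 CPM, does not tell a lower level from an equal one. Both groups were at or under the limit, no fold change is given, and it did not pass the filter for edgeR.

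**Figure D2:**
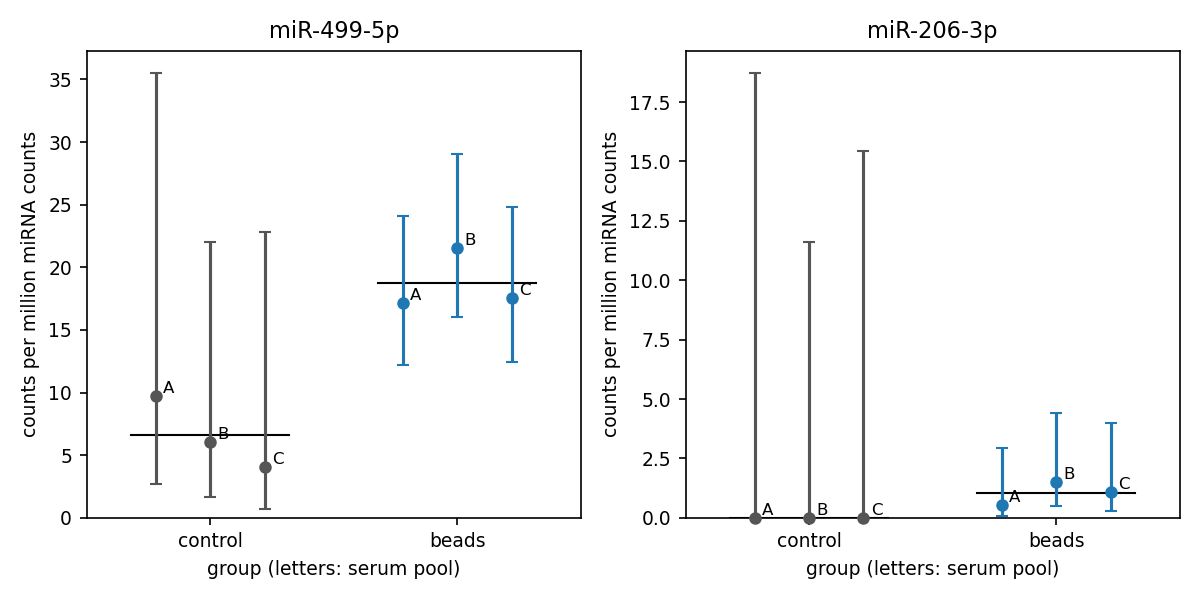
Levels of miR-499-5p (left) and miR-206-3p (right) in control and beads-depleted libraries, in CPM (counts scaled to 1000000 miRNA counts), with letters for serum pools, Wilson 95% intervals for counting error and black lines for group means. The intervals of the control libraries reach up to 35.5 CPM for miR-499-5p and 18.7 CPM for miR-206-3p, and cover the levels measured with beads.

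Neither miR-499-5p nor miR-206-3p had a count in an RNase H-depleted library. A count of 0 over the 5216 miRNA counts of the 3 libraries allows a level of up to 575.2 CPM, far above the level of either miRNA in the other groups. At its control level, 0.0332 counts of miR-499-5p would be found there. The RNase H-depleted libraries were too shallow to show either miRNA.

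miR-1a-3p had no row in the 9 files used here, and what the lack of a row stands for is not known. It was not analysed here. No limit is drawn from it, and its level is not set beside that of miR-133a-3p. None of the statements above rests on it.

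The order of the levels was the same in each library where it could be read, with miR-133a-3p above miR-499-5p and miR-499-5p above miR-206-3p. Mature miRNAs are read from end to end, so the counts of these miRNAs were compared without scaling by length. miR-133a-3p had 334.2, 260.0 and 324.0 times the count of miR-499-5p in beads-depleted libraries A, B and C. In control libraries this ratio was 552.5, 875 and 1356, with 1 or 2 counts of miR-499-5p in each. miR-499-5p had 33, 14.3 and 16.0 times the count of miR-206-3p in beads-depleted libraries. No neighbours in this order overlapped in level between libraries of a group, except that miR-499-5p and miR-206-3p cannot be ordered in control libraries, where both were below the limit, or in RNase H-depleted libraries, where neither had a count.

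**Figure D3:**
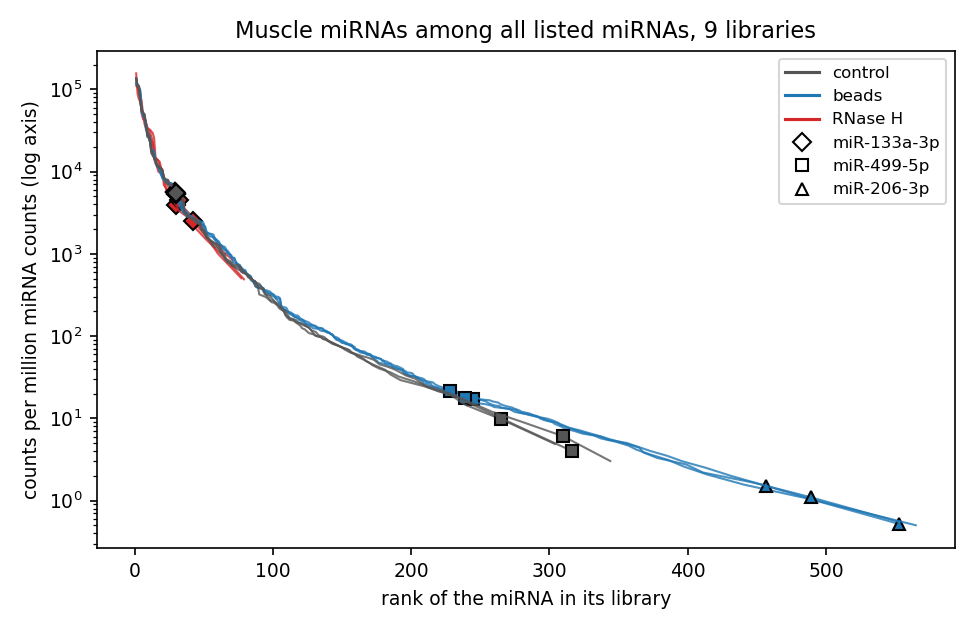
Level of every listed miRNA (CPM, log axis) against its rank in its library, as 1 line per library for 9 libraries, with symbols at the muscle miRNAs. miR-133a-3p sits near rank 30 in control and beads-depleted libraries, miR-499-5p between ranks 228 and 316, and miR-206-3p at ranks 457 to 553 in beads-depleted libraries, more than the number of miRNAs listed in any control library (404 to 444). miRNAs with equal counts share the best of their ranks, which shortens the lines.

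Changes of the 2 tested miRNAs were also set beside those of all tested miRNAs. For miR-133a-3p with beads, 50 of the 307 miRNAs had a smaller absolute log2 fold change. For miR-499-5p the number was 277, but it entered the fit through its beads-depleted counts, so nothing is read from this place. The extreme log2 fold changes with beads, 7.47 and -1.87, were both in miRNAs of low level, where the spread reached further upward than downward. With RNase H, 66 of 138 miRNAs had a smaller absolute change than miR-133a-3p. The 2 comparisons share the control libraries and are not independent.

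**Figure D4:**
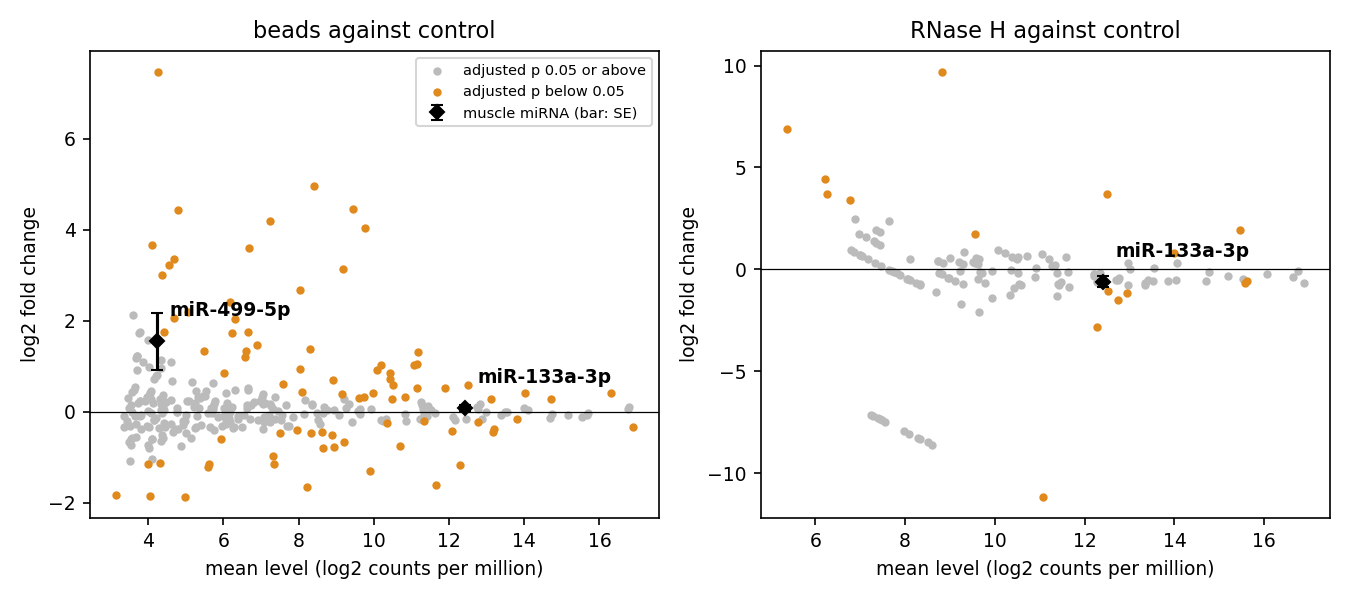
edgeR log2 fold change of each tested miRNA against its mean level (log2 CPM), for beads (left, 307 miRNAs) and RNase H (right, 138 miRNAs) against control. Orange points have an adjusted p below 0.05. Black diamonds with SE bars mark miR-133a-3p (0.08 and -0.60), which did not pass, and miR-499-5p (1.55, left only). miR-499-5p entered the fit through its beads-depleted counts, and no call is made for it.

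Of the miRNAs with at least 10 counts in each of the 6 control and beads-depleted libraries, 169 could be compared with miR-133a-3p in profile. The nearest were MIMAT0000531, MIMAT0000539 and MIMAT0016988, for which no table used here gives names. The root mean square difference of the centred log2 levels over these 6 libraries was 0.036, 0.040 and 0.047, against a median of 0.20 over all 169. MIMAT0000531 and MIMAT0000539 are far more abundant, at 109077 ± 3815 and 109316 ± 1215 CPM in control libraries (SD, n = 3), whereas MIMAT0016988 was at 592 ± 11.0 CPM. These are profiles that hardly moved between libraries, and abundant miRNAs have the least counting error. miR-499-5p and miR-206-3p had too few counts in control libraries for this comparison.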

How the data were processed

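Libraries of 9 fractions of mouse serum RNA were grouped by their labels. The authors trimmed reads with Cutadapt 1.8.1, discarded those under 15 bases, required a quality score of 20 in 80% of bases and mapped reads to GRCm38 with Bowtie 1.1.2 without mismatches, which leaves out reads with an altered base or an untemplated end. The deposited values are raw counts per mature miRNA (miRBase identifiers) and per distinct read sequence of other small RNA classes, not normalised. Reads carry no molecular identifiers, so intervals and limits (3 counts) cover counting error only.

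Counts were fitted over all miRNAs with edgeR 4.0.16 in R 4.3.3 (TMM, filterByExpr, quasi-likelihood test, Benjamini-Hochberg adjustment) on the 2 groups compared. SE was obtained from each fold change and its F statistic. Levels were compared with a two-sided exact permutation test over 20 assignments (SciPy 1.17.1). The fit was tested on simulated data, in which false calls stayed under the threshold for beads. Where many miRNAs were changed, they exceeded it at the depth of the RNase H-depleted libraries. All simulated miRNAs had the same spread between libraries beyond counting error. The rate of false calls in the real counts is thus not known from this test. The 3 libraries of a group differed beyond sampling noise (chi-square per degree of freedom of at least 1.37) and were counted as 3 replicates. Pools pair the libraries because their RNA was divided between the groups. Correlations of deviations within pools were 0.174, 0.032 and 0.011 for beads and -0.066, -0.027 and 0.091 for RNase H.

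The miRNAs, lists and tests were chosen with earlier results of these data known. The text names the 4 miRNAs and, for each with at least 10 counts in 6 libraries, the 3 nearest in profile (log2 of CPM plus 1). A wider list of muscle miRNAs and markers of red blood cells, liver, leukocytes, endothelium and smooth muscle had been planned, but no table used here pairs their names with identifiers, and they are not analysed here.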

Additional observations from a re-analysis of the deposited data

How the results depend on the processing

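miR-133a-3p kept its direction in both comparisons under each alternative that gave a value. The direction of miR-499-5p with beads was kept too. Filtered fits include miR-499-5p only through its beads-depleted counts, so nothing is read from its direction there. With all annotated counts as library size, values are relative to annotated reads and not to miRNA reads. The log2 fold change with beads was then 3.40 for miR-133a-3p and 4.77 for miR-499-5p, for which no call is made. That of miR-133a-3p with RNase H was -2.04, and miR-133a-3p passed in edgeR in both comparisons. The miRNAs called were 332 for beads (all higher) and 51 for RNase H (4 higher). The filter on low counts follows library size, so the miRNAs tested were not the 307 and 138 of the main fits. No share is read from these counts. Nearly all calls went in the direction of miR-133a-3p at this scale, so passing does not set it apart. Taking pools as a replicate block, the edgeR adjusted p of miR-499-5p was 0.0472 (log2 fold change 1.57), but it entered the test through the beads-depleted counts alone and did not pass with DESeq2, without the filter or in any fit that left out libraries. The block left miR-133a-3p uncalled in both comparisons. Of the same 307 and 138 miRNAs tested, 91 (beads) and 12 (RNase H) were called against 82 and 16. DESeq2, run without edgeR's filter, called 82 and 32. Leaving out libraries or pools gave 4 to 30 calls for RNase H, fewest without control B, control C or pool C and most without pool B. Without a control library the filter kept fewer miRNAs, as described above, so these calls cannot be set beside 16. The cause of the other differences was not tested. Over the fits that left out libraries or pools, the log2 fold change of miR-133a-3p ranged from -0.94 (without pool B) to -0.27 (without control C) with RNase H. It ranged from 0.07 to 0.10 with beads, and that of miR-499-5p from 1.31 to 1.92. miR-499-5p gave no value in the joint fit of 9 libraries or without 1 beads-depleted library, where the filter removed it. The summed level of these miRNAs, nearly all miR-133a-3p, differed from control by 308.2 CPM with beads and by -1725 CPM with RNase H. These values were 674.2 and -4178 without the 5 most abundant miRNAs in the denominator, and 3096 and -230.4 when scaled to 1000000 annotated counts. Counts of other muscle miRNAs at a minimum of 4 were not run, for lack of identifiers. Depth limits miR-206-3p in all groups, and every value from RNase H-depleted libraries.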
